A study of Homo sapiens with 3 samples.

Results

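The G1 cyclin, CDK and pocket protein genes are 10 genes of the switch that commits a cell to S phase: RB1, RBL1, RBL2, CCND1, CCND2, CCND3, CCNE1, CCNE2, CDK4 and CDK6. They were taken by name from 20033 protein-coding genes of GENCODE release 44 on GRCh38. All peaks of a CHD8 list and a TRRAP list that touched the stretch from 5 kb upstream of each gene to its end were collected, which gave 38 of 23393 CHD8 peaks and 27 of 14735 TRRAP peaks. The lists come from ChIP-seq, in which chromatin bound to an antibody is sequenced, on wild-type human neural stem cells. They were made from the embryonic stem cell line H9 and kept in medium with EGF and FGF, and the labels give no treatment. A single library was made with each antibody (CHD8, TRRAP and control IgG), and the IgG control was not used here. With no replicate, no test was possible between conditions or antibodies, and the expression of these genes was not analysed here.

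D-type cyclins (CCND1, CCND2, CCND3) respond to growth factor signals and activate the kinases CDK4 and CDK6. These kinases phosphorylate the pocket proteins (RB1, and RBL1 and RBL2, which encode p107 and p130). Pocket proteins hold E2F transcription factors in check until they are phosphorylated, and E2F then drives the E-type cyclins (CCNE1, CCNE2), which activate CDK2. CHD8 is a chromatin remodeler, and TRRAP is a scaffold of histone acetyltransferase complexes that binds MYC and E2F. The series' title places both proteins at MYC and E2F target genes, and the comparison asked where on this switch each protein was found.

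The deposited fold of a peak, a linear ratio of its signal over background, could be turned into a number of fragments (pieces of sequenced DNA) that cover the summit. All 161 distinct folds of the CHD8 list lay on a ladder with a step of 0.442, and all 148 of the TRRAP list on a ladder with a step of 0.478. With 1 fragment per step and 1 background value per list (1.12 for CHD8 and 0.910 for TRRAP), the deposited −log10 p was matched to within 5e-05 for 120 CHD8 folds and 1e-04 for 113 TRRAP folds. Fragment counts below carry exact Poisson 95% intervals for the error of counting. They hold nothing on how much repeat experiments would differ. Nor do they allow for the choice of each summit as the highest point of a peak that passed a cutoff. The median summit held 20 fragments for CHD8 and 16 for TRRAP, and the weakest of each list held 10 and 9. Fragments were compared within a list and not between lists, because the read totals are not given in the sources used here.

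A promoter was taken as 1 kb on each side of the start of the canonical transcript, and a peak that touched it was a promoter peak. All 10 genes had a CHD8 promoter peak, against 55.9% of all protein-coding genes. TRRAP was found at the promoter of 9 genes, against 34.9% of all genes, and the same 9 genes carried both, against 34.0%. The gene without TRRAP was RBL2. CHD8 without TRRAP was not particular to it: of 11208 coding genes with a CHD8 promoter peak, 6802 also had one of TRRAP. The observed over expected CpG ratio within 500 bp of the start ran from 0.554 at CCND2, above 30.7% of all coding genes, to 0.982 at RBL2. Among the 13885 genes with a ratio of at least 0.554, the shares were 76.4% for CHD8, 48.8% for TRRAP and 47.5% for both, higher than over all genes. With 10 genes, 10 of 10 and 9 of 10 are descriptions and no test was made.

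The strongest promoter peaks of the 10 genes were of ordinary height for occupied promoters. For CHD8 the median was 23.5 fragments (14 to 85), beside 26 over all 11208 occupied genes. For TRRAP it was 20 fragments over 9 genes (10 to 37), beside 17 over all 7000 occupied genes. RBL1 led both lists. In CHD8 it was followed by CDK4 (33), RBL2 (31), CCND1 (29), RB1 (24), CCND3 and CDK6 (23 each), CCND2 (22), CCNE1 (15) and CCNE2 (14). RBL1 alone was clear of its neighbour in this order, and from CDK4 to CCNE2 the intervals of any 2 genes overlapped. In TRRAP the order was RBL1 (37), CCNE1 and CDK4 (24 each), CDK6 (22), CCND3 (20), CCNE2 (18), RB1 (13), CCND2 (12) and CCND1 (10). The interval of RBL1 there lay above those of RB1, CCND2 and CCND1 and overlapped the others.

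**Figure D1:**
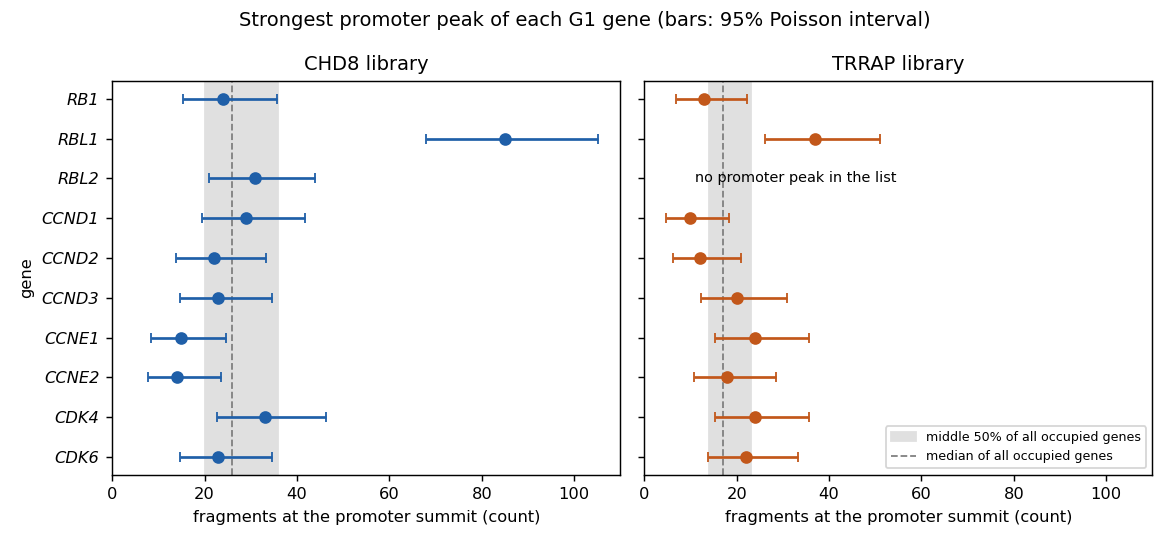
Fragments at the strongest promoter summit of each gene in the CHD8 library (left) and the TRRAP library (right), with exact Poisson 95% intervals as bars. The grey band holds the middle 50% of all occupied genes and the dashed line is their median. RBL1 stands to the right of the band in both panels, the E-type cyclin genes lie left of it for CHD8, and RBL2 has no TRRAP promoter peak.

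Of the pocket protein genes, RBL1 carried by far the tallest CHD8 peak, RB1 a modest pair of overlapping peaks, and RBL2 carried CHD8 alone. RBL1 encodes p107, a pocket protein that is itself under E2F control. It had 1 CHD8 peak, at chr20:37095509-37096517, which was 1009 bp wide with a fold of 38.0, a −log10 q of 110.9 and 85 fragments (67.9 to 105). Its summit lay 179 bp upstream of the start, and 97.9% of occupied genes had a lower CHD8 promoter summit. TRRAP had 2 peaks inside that CHD8 peak. The stronger, at chr20:37095827-37096261, had a fold of 18.2 and 37 fragments (26.1 to 51.0), and its summit was 35 bp upstream. The weaker, at chr20:37095509-37095762, had 15 fragments (8.40 to 24.7) and its summit 330 bp downstream, in intron 1. The upstream and downstream TRRAP summits thus flanked the start, while CHD8 was drawn as 1 block across it. The start of a lncRNA on the opposite strand, ENSG00000269846, also lies under the CHD8 peak, 391 bp from its summit.

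The 250 bases before the RBL1 start are shown because both the CHD8 and the stronger TRRAP summit fall in them and because they hold 2 E2F words. The stretch is chr20:37095998-37096247 of GRCh38.p14, on the minus strand, from the RefSeq promoter table. The capitals mark the words TTTCGCGC (26 to 19 bp upstream of the start) and TTTGGCGC (16 to 9 bp upstream).
RBL1: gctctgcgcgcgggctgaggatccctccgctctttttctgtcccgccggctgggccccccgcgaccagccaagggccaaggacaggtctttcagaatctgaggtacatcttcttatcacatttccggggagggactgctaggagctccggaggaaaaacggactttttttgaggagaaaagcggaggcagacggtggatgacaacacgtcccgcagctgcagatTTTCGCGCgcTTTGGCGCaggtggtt

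RB1 encodes the retinoblastoma protein. Its promoter held a CHD8 peak at chr13:48303250-48304082, 833 bp wide, with a fold of 11.1 and 24 fragments (15.4 to 35.7), whose summit lay 102 bp upstream of the start. A second, small CHD8 peak at chr13:48304267-48304470 had 14 fragments (7.65 to 23.5) and its summit in intron 1, 592 bp downstream. The TRRAP peak at chr13:48303553-48303776 lay wholly inside the larger CHD8 peak, with 13 fragments (6.92 to 22.2) and the summit 78 bp upstream. Both summits lie between the starts of RB1 and of the divergent lncRNA RB1-DT. The annotated gene runs 117546 bp past the end of the canonical transcript, and the window holds starts of other genes both inside that transcript and beyond its end. A CHD8 peak of 13 fragments (6.92 to 22.2) in intron 17 had its summit 22 bp upstream of the start of LPAR6, a receptor gene nested in RB1. Beyond the canonical end, a CHD8 peak of 27 fragments (17.8 to 39.3) and a TRRAP peak of 17 fragments (9.90 to 27.2) lay at the start of RCBTB2. In the 178140 bp of the canonical RB1 transcript, the lists held no TRRAP peak with its summit inside, and the CHD8 summits inside were those in introns 1 and 17.

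RBL2 encodes p130, the pocket protein of resting cells. Its CHD8 peaks were at chr16:53434254-53435002 (749 bp, fold 10.2, 22 fragments, 13.8 to 33.3) and chr16:53435239-53435664 (426 bp, fold 14.2, 31 fragments, 21.1 to 44.0). The first summit lay 25 bp inside exon 1. The second was 1054 bp downstream of the canonical start and 94 bp upstream of another annotated start of RBL2. No TRRAP peak lay in the RBL2 window, and the nearest TRRAP summit was 68109 bp away from the second CHD8 summit. The weakest summit in the TRRAP list had 9 fragments, so a lower TRRAP signal at RBL2 was not detectable.

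The stretches before both RBL2 starts are shown because RBL2 alone among the 10 genes had CHD8 without TRRAP, a state common among CHD8 promoters. They are chr16:53434277-53434470 (the 194 bases before the first start that lie outside annotated UTRs) and chr16:53435369-53435618 (250 bases before the second start), on the plus strand of GRCh38.p14 from the RefSeq table. Neither holds an E2F word. The capitals in the second mark a CCAAT word, and the first holds no word of those searched.
RBL2 first start: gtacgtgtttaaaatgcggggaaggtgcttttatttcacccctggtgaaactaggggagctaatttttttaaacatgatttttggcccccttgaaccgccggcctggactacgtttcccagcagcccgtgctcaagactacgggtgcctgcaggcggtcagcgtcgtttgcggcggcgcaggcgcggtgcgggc
RBL2 second start: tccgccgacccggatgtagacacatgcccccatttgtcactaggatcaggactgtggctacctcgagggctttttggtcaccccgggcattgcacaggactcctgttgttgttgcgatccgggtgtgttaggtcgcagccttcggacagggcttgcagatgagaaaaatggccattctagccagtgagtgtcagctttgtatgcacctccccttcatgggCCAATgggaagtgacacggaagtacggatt

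The D-type cyclin genes held most of the peaks outside the canonical promoters, 12 of 21 for CHD8 and 11 of 16 for TRRAP. Some of these lay at other annotated starts of the same genes, at a lncRNA start or at the start of TAF8. CCND1, CCND2 and CCND3 together had 17 CHD8 and 14 TRRAP peaks. CCND1 had 6 CHD8 and 5 TRRAP peaks, CCND2 had 7 and 6, and CCND3 had 4 and 3. Outside this family, CDK6 alone reached such numbers, with 6 and 5. A window with 6 or more CHD8 peaks occurred in 1.39% of all protein-coding genes, and one with 5 or more TRRAP peaks in 0.913%. These limits are the counts of CCND1 and CDK6 themselves, so CCND1, CCND2 and CDK6 met both by construction. Longer windows can hold more peaks. Among the 11426 genes with a window no longer than the 40583 bp of CCND2 the shares were 0.420% and 0.359%. CCND1 and CCND2 were 2 of the 5 members in that class. Its length limit was also taken from a member, and it leaves out CDK6, whose window is 236653 bp. The shares are descriptions and no test was made.

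**Figure D2:**
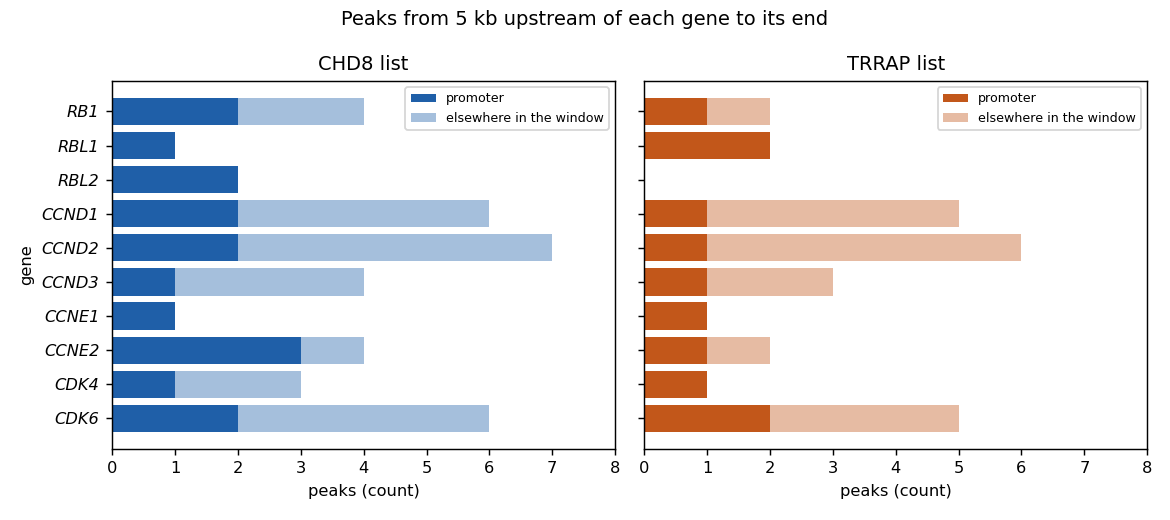
Number of peaks in each list from 5 kb upstream of each gene to its end, split into promoter peaks (dark) and peaks elsewhere in the window (pale). CCND1, CCND2 and CDK6 have the longest bars in both panels, and RBL2 has none in the TRRAP panel.

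CCND1 encodes cyclin D1, and its peaks formed a row from upstream of the start into the gene. The CHD8 peak at the start, chr11:69640819-69641307, was the strongest of the 6, with a fold of 13.3 and 29 fragments (19.4 to 41.7) and its summit 4 bp downstream of the start. The TRRAP peak there, chr11:69641060-69641246, was the weakest of the 5, with a fold of 5.30 and 10 fragments (4.80 to 18.4), 1 more than the weakest summit in the list. TRRAP was instead strongest at chr11:69636616-69636826, where it had a fold of 12.9 and 26 fragments (17.0 to 38.1) at 4446 bp upstream. It had 23 fragments (14.6 to 34.5) at 2687 bp upstream and 16 (9.15 to 26.0) at 1883 bp upstream. CHD8 had overlapping peaks at each of these 3 places, of 18 (10.7 to 28.5), 23 (14.6 to 34.5) and 19 (11.4 to 29.7) fragments, with summits 33, 28 and 64 bp from those of TRRAP. Among these 3 places and the start, CHD8 was lowest at the outermost and highest at the start, and TRRAP was highest at the outermost and lowest at the start. Within each list, however, the intervals of the start and of the outermost upstream peak overlapped.

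The remaining CCND1 peaks had no partner. These were CHD8 peaks at 675 bp upstream (16 fragments, 9.15 to 26.0) and 1535 bp downstream in intron 1 (14 fragments, 7.65 to 23.5), and a TRRAP peak at 2219 bp downstream in intron 2 (14 fragments, 7.65 to 23.5). No annotated start of CCND1 and no canonical start of another gene lay within 1 kb of the 3 upstream pairs.

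CCND2 encodes cyclin D2, and its peaks were spread widely, with the taller ones away from the start. The CHD8 peak over the start, chr12:4273516-4273809, had a fold of 7.54 and 16 fragments (9.15 to 26.0), with the summit 54 bp upstream, and no TRRAP peak overlapped it. The broadest CHD8 peak, 1056 bp at chr12:4271775-4272830, had 22 fragments (13.8 to 33.3) and its summit 1075 bp upstream. It overlapped by 112 bp a TRRAP peak of 12 fragments (6.20 to 21.0) at chr12:4272719-4272931. That TRRAP peak, with its summit 1005 bp upstream, only touches the edge of the promoter window, and with a window of 500 bp on each side CCND2 had no TRRAP promoter peak. The CHD8 and TRRAP summits of this pair were 466 and 396 bp upstream of another annotated start of CCND2.

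Inside CCND2, CHD8 was highest in intron 3 at chr12:4280446-4280814, with a fold of 13.3 and 29 fragments (19.4 to 41.7), and a TRRAP peak of 19 fragments (11.4 to 29.7) had its summit 29 bp away. The strongest TRRAP peak of the gene stood alone in intron 4, at chr12:4293946-4294226, 20345 bp from the start, with a fold of 13.4 and 27 fragments (17.8 to 39.3). The nearest CHD8 summit to it was 4641 bp away, also in intron 4, with 15 fragments (8.40 to 24.7). Within each list, the interval of the tallest CCND2 peak overlapped those of the promoter peaks. The other CCND2 peaks had 14 to 22 fragments for CHD8 and 13 to 17 for TRRAP. At the start, CCND2 shares its position with ENSG00000285901, a second annotated protein-coding gene, so peaks there belong to both names.

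**Figure D3:**
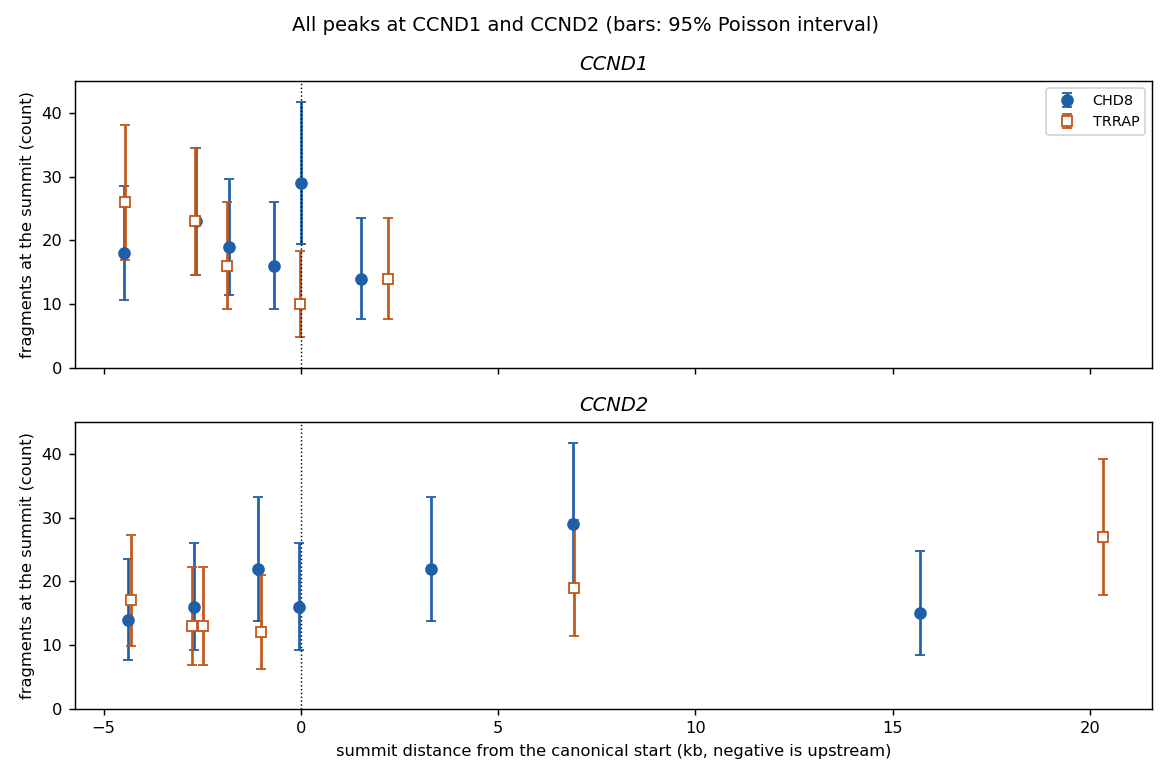
Fragments at every CHD8 (filled circles) and TRRAP (open squares) summit in the CCND1 and CCND2 windows against the distance from the canonical start in kb, with Poisson 95% intervals. At CCND1 the TRRAP points are highest 4446 bp upstream and lowest at the start, where CHD8 is highest. At CCND2 the highest TRRAP point lies 20345 bp downstream with no CHD8 point beside it.

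CCND3 encodes cyclin D3, and it had 1 peak of each list at its canonical start. The CHD8 peak at chr6:41941782-41942203 had a fold of 10.6 and 23 fragments (14.6 to 34.5), with the summit 100 bp upstream. The TRRAP peak at chr6:41941696-41942038 had a fold of 10.1 and 20 fragments (12.2 to 30.9), with the summit 32 bp downstream in exon 1. The annotated gene begins 108549 bp further upstream. Near a distant annotated start, CHD8 had 17 fragments (9.90 to 27.2) at 106908 bp upstream of the canonical start, and TRRAP had 10 (4.80 to 18.4) at 106923 bp upstream. The tallest CHD8 peak of the CCND3 window, chr6:42050358-42051007 with a fold of 36.3 and 81 fragments (64.3 to 101), had its summit 61 bp downstream of the start of TAF8, a gene for a TFIID subunit that points away from CCND3, and 228 bp upstream of the most distant annotated start of CCND3. The TRRAP peak there had 13 fragments (6.92 to 22.2), with its summit 20 bp downstream of the TAF8 start and 187 bp upstream of that of CCND3. A further CHD8 peak of 21 fragments (13.0 to 32.1), 23933 bp upstream, overlapped no TRRAP peak. No annotated start of CCND3 and no canonical start of another gene lay within 1 kb of it.

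At the canonical promoters, the E-type cyclin genes had the weakest CHD8 summits of the 10, while their TRRAP peaks ranked near the middle or higher among occupied promoters. At another annotated start of CCNE2, outside that window, CHD8 had a taller peak of 28 fragments. CCNE1 encodes cyclin E1, a classic E2F target. Its CHD8 peak, chr19:29811867-29812020, was 154 bp wide, the lowest width in the CHD8 list, with a fold of 7.10 and 15 fragments (8.40 to 24.7). Only 5.2% of occupied genes had a lower CHD8 promoter summit. The TRRAP peak, chr19:29811614-29811976, was 363 bp wide with a fold of 12.0 and 24 fragments (15.4 to 35.7), above 76.5% of occupied genes. The summits lay 49 bp (CHD8) and 113 bp (TRRAP) upstream, and 30.3% of the TRRAP peak was shared. GC content in the 1 kb around the CCNE1 start was 82.0%, the highest of the 10 (58.7% to 68.6% in the others), and its part in these values was not tested.

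The CCNE1 stretch is shown because both summits fall in its 250 bases, which hold 6 SP words and no exact match to an E2F word searched. Near matches were left out, and the stretch does hold tgtcccgc, 1 letter different from the E2F word TTTCCCGC. No lack of E2F sites can be read from it. An E2F word of CCNE1, TTTGCCGC, lies just outside the stretch, 383 to 376 bp upstream of the start. It is chr19:29811741-29811990, plus strand, GRCh38.p14, from the RefSeq table, 250 to 1 bp upstream of the start, with the word GGGCGGG in capitals on either strand.
CCNE1: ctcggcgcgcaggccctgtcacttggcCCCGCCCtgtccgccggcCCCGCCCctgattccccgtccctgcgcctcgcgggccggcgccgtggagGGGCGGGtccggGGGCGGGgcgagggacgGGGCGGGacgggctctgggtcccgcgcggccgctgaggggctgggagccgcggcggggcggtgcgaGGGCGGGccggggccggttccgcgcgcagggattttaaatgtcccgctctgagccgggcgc

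CCNE2 encodes cyclin E2 (chr8:94879770-94896678). Over its canonical promoter CHD8 appeared as 3 small peaks of 14, 14 and 13 fragments, with summits 43, 416 and 750 bp upstream. Their intervals ran from 6.92 to 23.5, and the tallest stood above 2.7% of occupied genes. TRRAP formed 1 broad peak of 683 bp with 18 fragments (10.7 to 28.5) and its summit 555 bp upstream, touching 2 of these 3. The tallest peaks of both lists lay further out. CHD8 had 28 fragments (18.6 to 40.5) at 1558 bp upstream and TRRAP 19 (11.4 to 29.7) at 1496 bp upstream, which is 81 and 19 bp upstream of another annotated start of CCNE2. The interval of this CHD8 peak overlapped those of the canonical promoter.

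Of the kinase genes, CDK4 had 1 promoter peak in each list, wide and shared, and CDK6 had a series of peaks through the first 3 kb. At CDK4, the CHD8 peak chr12:57751999-57752734 (736 bp, fold 15.1, 33 fragments, 22.7 to 46.3) and the TRRAP peak chr12:57751904-57752720 (817 bp, fold 12.0, 24 fragments, 15.4 to 35.7) had summits 28 and 26 bp upstream. That distance of 2 bp was the smallest among 24 overlapping pairs at the 10 genes, whose median was 63 bp and whose largest, at RBL1, was 509 bp. The TRRAP peak was the widest of the 27. CHD8 had 2 more peaks in the CDK4 window, of 16 (9.15 to 26.0) and 15 (8.40 to 24.7) fragments, with no TRRAP partner. Their summits lay 41 and 286 bp downstream of the start of MARCHF9, a neighbouring gene, and 869 and 624 bp from another annotated start of CDK4.

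A stretch upstream of CDK4 is shown because it holds 2 of the E-box words that MYC and MAX bind. It is chr12:57752448-57752560, minus strand, GRCh38.p14, from the RefSeq table. It covers 250 to 138 bp upstream of the start, where the annotation places no UTR, and lies within both peaks. The capitals mark CACGTG at 216 to 211 and 196 to 191 bp upstream.
CDK4: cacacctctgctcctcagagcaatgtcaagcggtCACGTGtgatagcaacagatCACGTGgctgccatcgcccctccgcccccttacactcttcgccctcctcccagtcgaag

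CDK6 encodes the second D-cyclin kinase. At its start, the CHD8 peak chr7:92836420-92837022 had a fold of 10.6 and 23 fragments (14.6 to 34.5), with the summit 61 bp upstream. The TRRAP peak chr7:92836387-92836794 had 15 fragments (8.40 to 24.7) and its summit 121 bp downstream. In intron 1, CHD8 had a second promoter peak, equally tall with 23 fragments (14.6 to 34.5). Its summit, 1115 bp downstream, was outside the promoter window, which the peak only touched, and 161 bp upstream of another annotated start of CDK6. This CHD8 peak overlapped 2 TRRAP peaks, of 22 fragments (13.8 to 33.3) at 873 bp and 14 (7.65 to 23.5) at 1164 bp. Their summits were 403 and 112 bp upstream of that other start. The peak at 873 bp, chr7:92835579-92836065, was the strongest TRRAP peak of the gene. At 2600 bp downstream a CHD8 peak of 780 bp and 21 fragments (13.0 to 32.1) enclosed a TRRAP peak of 14 fragments (7.65 to 23.5), whose summit lay 16 bp upstream of another CDK6 start in GENCODE. An unpaired CHD8 peak of 12 fragments (6.20 to 21.0) lay between, at 1985 bp. The start of the lncRNA CDK6-AS1, on the opposite strand, lay 267 bp from the first CHD8 summit and 85 bp from the first TRRAP summit.

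Deep in CDK6, intron 4 held 2 small CHD8 peaks (14 and 12 fragments) at 140741 and 140424 bp from the start and a TRRAP peak of 13 fragments at 137884 bp. These did not overlap, and the nearest summits were 2540 bp apart. No annotated start of CDK6 and no canonical start of another gene lay within 1 kb of them.

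The 250 bases before a second CDK6 start in RefSeq, 2614 bp downstream of the first, are shown because the CHD8 peak covers them and the TRRAP peak lies partly in them. The stretch is chr7:92833960-92834209, minus strand, GRCh38.p14, from the RefSeq table, and holds none of the words searched.
CDK6 second start: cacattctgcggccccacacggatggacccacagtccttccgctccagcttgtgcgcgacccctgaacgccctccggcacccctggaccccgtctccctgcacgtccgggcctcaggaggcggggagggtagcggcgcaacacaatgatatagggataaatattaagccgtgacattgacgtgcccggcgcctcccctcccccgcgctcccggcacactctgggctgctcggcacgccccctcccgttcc

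**Figure D4:**
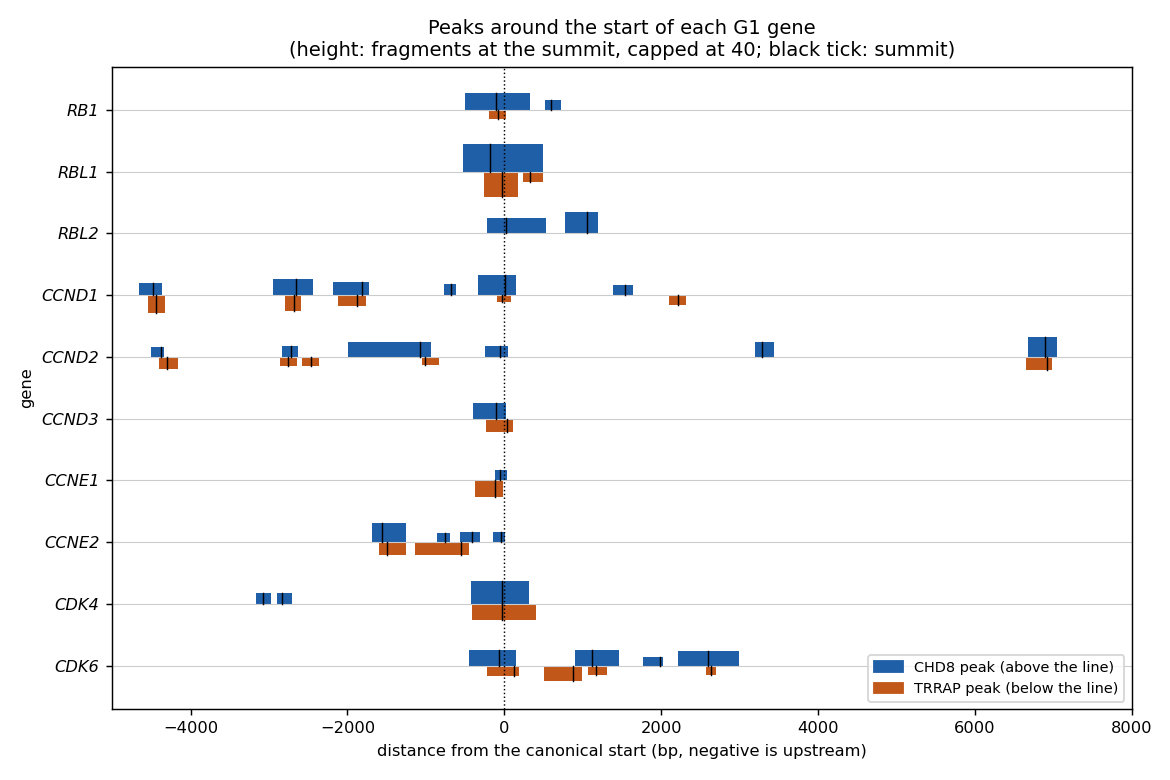
Peaks of both lists from 5000 bp upstream to 8000 bp downstream of each canonical start, with CHD8 above and TRRAP below each line, bar width to scale, height as fragments at the summit (capped at 40, which RBL1 passes for CHD8) and a black tick at the summit. Peaks further away, such as those at TAF8 or in CDK6 intron 4, are outside the map. CDK4 shows 1 aligned pair, CCND1 and CDK6 show rows of pairs, and RBL2 shows CHD8 only.

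Over all 10 genes, 23 of 27 TRRAP peaks overlapped a CHD8 peak by at least 1 bp, beside 86.8% of the whole TRRAP list. In the other direction 22 of 38 CHD8 peaks overlapped TRRAP, beside 48.6% of the whole CHD8 list, so the shares at these genes were near those of the lists. The 4 TRRAP peaks without CHD8 were in CCND2 (2), CCND1 and CDK6. All 11 TRRAP promoter peaks overlapped CHD8, and 11 of the 17 CHD8 promoter peaks overlapped TRRAP. Counted by gene over all protein-coding genes, 6802 of the 7000 with a TRRAP promoter peak also had one of CHD8. Of the 11208 genes with a CHD8 promoter peak, the same 6802 also had one of TRRAP. In 16 of the 24 pairs the summits were at most 100 bp apart, and in 11 the TRRAP peak lay wholly inside the CHD8 peak.

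Outside promoters, the 21 CHD8 peaks fell at the start of another protein-coding gene (5), if not there at another annotated start of the same gene (6), otherwise at a lncRNA start (1) or at none of these within 1 kb (9). The 16 TRRAP peaks fell in these classes 2, 6, 0 and 8 times. For genes other than the member itself only the canonical start was searched. Of the peaks at another coding gene, 3 CHD8 peaks (at TAF8 and MARCHF9) and 1 TRRAP peak (at TAF8) were also within 1 kb of a further start of CCND3 or CDK4, so that 9 CHD8 and 7 TRRAP peaks in all lay at another start of the same gene. The peaks at none of these starts were those of CCND1, CCND2, CCND3 and CDK6, with 12 to 29 fragments for CHD8 and 13 to 27 for TRRAP. Peaks at other coding genes lay in the windows of RB1, CCND3 and CDK4.

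Exact matches to short words were sought on either strand from 250 bp upstream to 50 bp downstream of each canonical start. An E2F word (TTTCCCGC, TTTGGCGC, TTTGCCGC or TTTCGCGC) was present at RB1, RBL1 and CCND1, 3 of 10, beside 4.36% of all coding promoters. At RB1 it lay 25 to 18 bp upstream and at CCND1 147 to 140 bp upstream. The E-box CACGTG was present at CDK4 and CDK6, beside 8.76% of all promoters, and CDK4 held 5 copies within 500 bp of its start. The CHR words TTTGAA or TTCGAA, bound by the MuvB core of the DREAM complex, were present at RBL2 and CCND2, beside 12.8%. The SP word GGGCGGG was present at 7 genes, beside 47.1%, and CCAAT at CCND3 and CCNE2, beside 36.1%. The CRE word TGACGTCA (2.69% of all promoters) and the ETS word CCGGAAGT (6.14%) were at none of the 10. The genes with an E2F word depended on the window. Within 500 bp of the start they were RB1, RBL1, CCND1 and CCNE1, 4 of 10 beside 10.5% of all promoters. Within 100 bp of the strongest CHD8 promoter summit they were RB1 and CCND2, 2 of 10 beside 3.77% of genes with such a peak. Word shares among CpG-rich promoters were not computed. A matched word is a description of the letters and not a bound site, and near matches were left out. The RefSeq table matched 7 of the 10 genes, not CCND1, CCND2 or CCNE2.

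Of 32 other genes of the switch, on a list written from general knowledge (E2F and DP factors, CDK inhibitors, CDK2 and its activators, MuvB subunits and regulators of licensing and degradation), 30 had a CHD8 promoter peak, 20 had TRRAP and 19 had both (59.4%). Over all protein-coding genes the shares were 55.9% for CHD8, 34.9% for TRRAP and 34.0% for both, and over those with a CpG ratio of at least 0.554 they were 76.4%, 48.8% and 47.5%. TFDP1, the main E2F dimer partner, had a promoter peak in the TRRAP list alone, at 17 fragments, and CDKN2C, an inhibitor of CDK4 and CDK6, had neither. The CHD8 list has the stricter cutoff, so a weaker CHD8 signal at these genes would not be listed. CHD8 alone was found at 11 of the 32. Over all protein-coding genes, 11208 had a CHD8 promoter peak and 6802 of these also had TRRAP. The 11 ran from E2F2 (12 fragments) to MNAT1 (62) and included CDK7 (33). Also among them were CDK2, the partner of the E-type cyclins (14), and the MuvB subunits LIN37 (16), LIN52 (19) and LIN54 (27). The tallest CHD8 summits on the list were at RBBP4 (72 fragments, TRRAP 34) and LIN9 (68, TRRAP 26), further MuvB subunits. These genes of the list were singled out after their values were seen. The median strongest promoter summit of the list was 24 fragments for CHD8 and 15 for TRRAP, beside 23.5 and 20 for the 10 genes and 26 and 17 for all occupied genes.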

How the data were processed

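ChIP-seq peak lists for CHD8 and TRRAP were used, 1 library each. The submitters' processing notes name HISAT2, MACS2 2.1.1.20160309 and GRCh38, without settings, the control used, filters or read totals. The name of the CHD8 list gives an FDR of 0.0001 and that of the TRRAP list an FDR of 0.001. Each peak carries a deposited fold (a linear ratio over background), a deposited −log10 p-value and −log10 q-value, a summit position, and a deposited score that equals 10 times the −log10 q, rounded down. No peak on chromosomes 1 to 22, X or Y ran past the end of its GRCh38 sequence. Coordinates are counted from 1.

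Peaks were assigned by any overlap to windows from 5 kb upstream of the gene to its end and to promoters of 1 kb on each side of the canonical start (GENCODE 44). The fragments at a summit were computed from the fold with the caller's formula, fold = (scaled fragments + 1) / (background + 1), and checked against the deposited −log10 p where that was under 200. Both this step and the overlaps were tested on simulated data. Every promoter peak was named, and elsewhere at least the strongest peak of each list per gene. Python 3.11.15, numpy 2.4.6, pandas 2.3.3, scipy 1.17.1 and matplotlib 3.10.9 were used. The genes, lists and settings were chosen with earlier results of these data known. Depth limits each value through its fragments, and no p-value was computed.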

Additional observations from a re-analysis of the deposited data

How the results depend on the processing

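Of 35 alternative settings over 9 results, 29 left the count within 1.5 times its main value. The other 6 were all restrictions to peaks at or above the median rank, which leave fewer peaks by construction. Under them, 4 genes had both promoter peaks (RBL1, CCND3, CDK4 and CDK6), beside 16.7% of all protein-coding genes under the same rule. The windows then held 18 CHD8 and 13 TRRAP peaks, of which 8 and 8 overlapped the other list, and 6 of the 32 other genes of the switch had both. A window of 500 bp gave 8 genes with TRRAP, and a window of 2500 bp or the starts of all transcripts gave 9. Leaving out peaks at the start of another protein-coding gene, a setting chosen after the data were seen, gave 33 CHD8 and 25 TRRAP peaks. No paired analysis was possible because each antibody had 1 library. Most promoter summits at these genes rest on 10 to 33 fragments and carry wide intervals, and no test of a difference between genes was made.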

Other observations

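A single background value per list was enough to obtain the deposited −log10 p from the deposited fold at every fold checked, and the remaining folds lay on the same ladder. The deposited folds therefore carry no local background, and differences in GC content or accessibility between, for example, CCNE1 and CCND2 were not corrected in them.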
